A study of Mus musculus with 12 samples.

Results

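The response to castration was compared between luminal and basal cells of the mouse prostate, gene by gene, as the luminal change minus the basal change. All 12 arrays of the series entered the comparison, in 4 groups of 3 arrays. C57BL/6 males underwent surgical castration when 8 weeks old or stayed intact. Prostates of castrated mice were taken 4 weeks after surgery, and the labels used here give no such time for intact mice. Dissociated cells that lacked lineage markers and carried EpCAM were separated by their level of the integrin CD49f, which is lower on luminal than on basal cells. Luminal and basal cells of intact mice and luminal and basal cells of castrated mice made up the groups, and the labels call the 3 arrays of a group biological replicates. How many mice gave each array is not given in the sources used here. Of 18193 genes with a probe set, 14645 were bright enough to be tested, which meant a signal above the 40th percentile of its own array on at least 3 arrays. Both changes could be measured in 11869 of them, whose signal exceeded that percentile on at least 2 of 3 arrays in a luminal and in a basal group. Genes were called at an adjusted p of 0.05 in limma, and they were chosen by that test, so the size of a called difference describes how it was chosen as well as the cells.

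Luminal cells line the prostatic ducts, make the secreted proteins of the prostatic fluid and depend on androgen to do so. Basal cells lie beneath them on the basement membrane and carry the keratins Krt5 and Krt14 and the transcription factor p63. Castration removes testicular androgen, after which the gland regresses; most of the cells lost are luminal, and the surviving epithelium can regrow when androgen returns. Each array measured a sorted pool of cells, so fewer cells that express a gene and less of its RNA per cell cannot be told apart.

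The castration change differed between the cell types in 168 of 14645 genes, 1.15% of those tested. In 99 genes (0.676%) the luminal change lay above the basal change, and in 69 (0.471%) it lay below. Of the 168, 154 were measurable in both cell types, 93 with a positive and 61 with a negative difference. Within luminal cells alone castration changed 858 genes (5.86%), of which 424 rose (2.9%) and 434 fell (2.96%), and within basal cells 384 (2.62%), of which 164 rose (1.12%) and 220 fell (1.5%). The difference had an unadjusted p under 0.05 in 12.7% of genes and a positive estimate in 51.2%. These luminal and basal changes rest on different arrays.

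The 168 genes fell into 5 patterns. In 18 the change was called in both cell types with opposite signs, 13 having risen in luminal and fallen in basal cells and 5 the reverse. In 110 only the luminal change was called, 96 of them measurable in both cell types. In 25 only the basal change was called, in 6 both were called in one direction with unequal size, and in 9 neither change passed alone. The estimated changes had opposite signs in 125 of the 168. The difference was at least 4-fold in 125, and in 83 the intact and castrated arrays overlapped in neither cell type. A test of the difference favours genes with these traits, and they were not counted over all genes tested. The counts therefore describe the choice as well as the cells. Without the intensity trend in the variance model 27 genes were called, 26 of them among the 168. Of the 65 called genes chosen for naming by rule, 17 kept the call without the trend: C1s1, Casp12, Ccdc3, Cxcl5, Dcn, Frrs1, Herpud1, Htra1, Nefh, P4ha3, Pate14, Rgs4, Sec14l2, Slco5a1, Svs3a, Tatdn2 and Tnfaip2. Leaving out castrated luminal replicate 1, 2 or 3 left 78, 90 or 65 genes, and leaving out intact basal replicate 2 left 106.

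**Figure D1:**
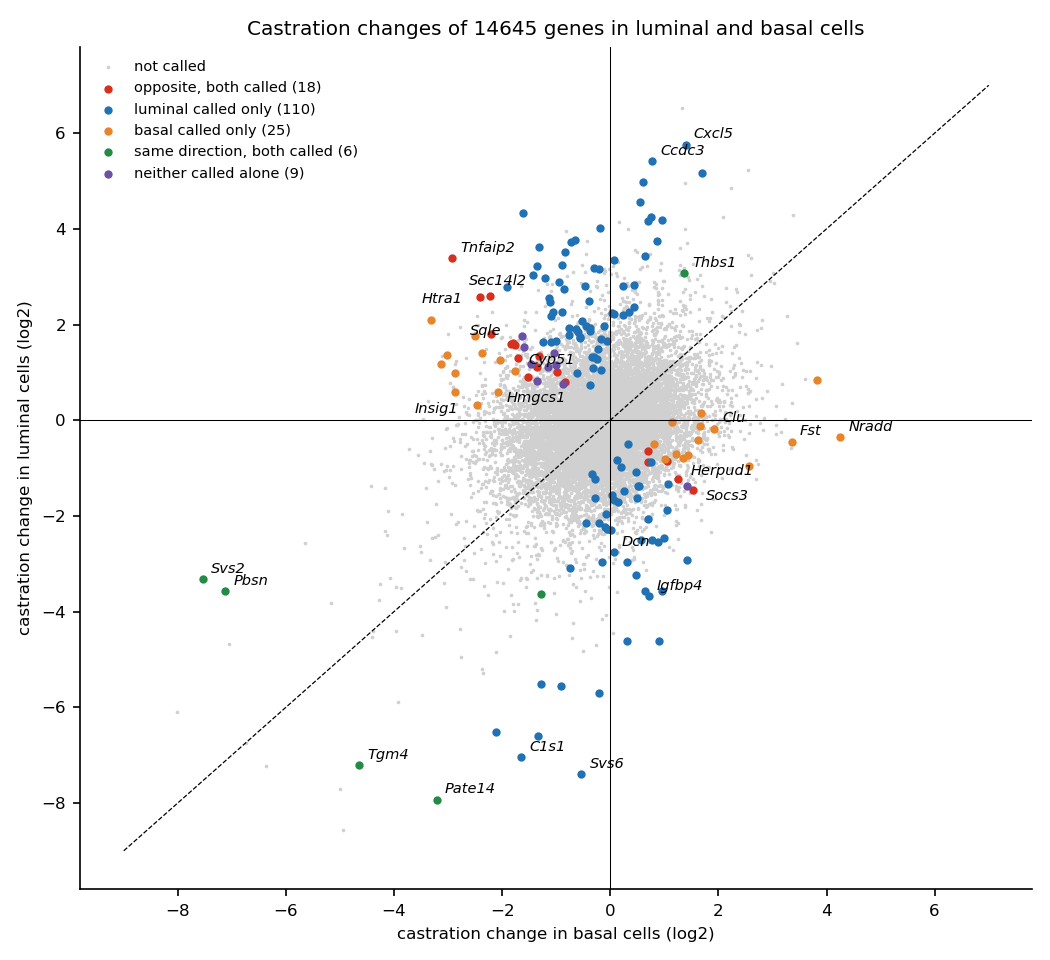
Castration change in luminal cells (vertical axis, log2) against the change in basal cells (horizontal axis, log2) for 14645 genes; the dashed line marks equal changes and colours mark the patterns of the 168 called genes. The 18 opposite genes lie in the upper left and lower right, and Svs2 and Pbsn lie far to the left of the line while Tgm4 and Pate14 lie below it.

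Krt5 was higher on basal and Krt8 on luminal arrays in both intact and castrated mice. Krt5 signal was 15237 to 25733 on intact basal and 23582 to 31827 on castrated basal arrays, against 19.96 to 489 and 5.89 to 62.7 on luminal arrays. Krt8, a luminal keratin, was 21538 to 27155 and 24004 to 28991 in intact and castrated luminal cells and 10950.0 to 16437 and 15305 to 19293 in basal cells. Krt18, the other luminal keratin, was 28227 to 40003 in luminal and 33233 to 47342 in basal cells of castrated mice, which overlapped, with the basal mean the higher. The castration change was not called as different between the cell types for Krt5 (-2.08 ± 0.96, adjusted p = 0.378), Krt14 (-0.89), Krt18 (-0.75), Krt8 (-0.22, which became 0.42 after quantile normalization), Trp63, the gene of p63 (-2.19, adjusted p = 0.104) or Hoxb13 (1.95, adjusted p = 0.214). Without intact luminal replicate 1, however, Krt5 was called (adjusted p = 0.0357). Of 22 measured basal identity genes none passed in either direction by limma (4 at an unadjusted p under 0.05), and of 17 luminal identity genes Cd24a passed downward. Over all genes 1.15% were called, 0.471% downward, and 12.7% had an unadjusted p under 0.05. Nothing is read from counts this small. Fibroblast markers moved with castration: the summed signal of 14 markers was 10359 to 18805 on intact luminal and 1149 to 1429 on castrated luminal arrays, and 41813 to 58441 and 25191 to 31259 on intact and castrated basal arrays. No marker of this list was below the 40th percentile throughout a group in intact cells, while 5 were in castrated luminal and 2 in castrated basal cells. Leukocyte markers summed to 664 to 1731 on intact and 518 to 895 on castrated luminal arrays, and to 1242 to 2734 and 2718 to 4128 on intact and castrated basal arrays. The part of these other cells in the results was not tested.

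Among the genes that rose in luminal and fell in basal cells, the widest gap was in Tnfaip2, a cytokine-inducible protein related to exocyst subunits. Its signal was 691, 278 and 290.1 on intact luminal and 3333, 5331 and 4020.2 on castrated luminal arrays. In basal cells it was 357, 466 and 266 before and 123, 8.07 and 17.9 after castration. Intact luminal and intact basal cells thus lay at like levels, castrated luminal arrays all lay above them, and castrated basal arrays all lay below. On the log2(signal + 16) scale Tnfaip2 rose 10.4-fold in luminal cells (adjusted p = 0.00226) and fell 7.64-fold in basal cells (adjusted p = 0.0167), a difference of 6.32 ± 0.85 log2 units (SE; adjusted p = 0.00235). In castrated basal cells 1 of 3 arrays exceeded the 40th percentile, so the size of the fall depends on the constant added. Both other Tnfaip2 probe sets had the same sign (2.847 and 1.502) and neither passed.

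Htra1, a secreted serine protease, had luminal signals of 77.4, 6.16 and 47.9 in intact and 336, 316 and 228 in castrated mice. Its basal signals were 1995, 2375 and 2982 and then 822, 402 and 256. The gene lay far higher in basal than in luminal cells of intact mice, and after castration the ranges of the cell types overlapped. The changes were 2.58 ± 0.57 and -2.41 ± 0.57, and the difference 4.998 ± 0.807 (adjusted p = 0.00521). Sec14l2, a lipid-binding protein that binds vitamin E and can stimulate squalene monooxygenase, went from 1711, 1245 and 439 to 4895, 6167 and 7348 in luminal cells. Its basal signal went from 1035, 289.8 and 697 to 162, 122 and 76.0. No castrated array overlapped the intact arrays of its cell type, and the difference was 4.83 ± 0.74 (adjusted p = 0.00374). Tnfaip2, Htra1 and Sec14l2 each stayed called when any single array was left out and under every other setting tried, the model without the intensity trend included.

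The other genes of this kind changed less. Frrs1, a ferric-chelate reductase, rose by 1.79 in luminal cells and changed by -2.20 in basal cells (difference 4.00 ± 0.68, adjusted p = 0.00732), a call lost without intact basal replicate 1 or 2 (adjusted p = 0.0611 and 0.0822). Fnip2, a folliculin-interacting protein, had changes of 1.60 and -1.84 in luminal and basal cells. Ovol1, a zinc-finger transcription factor of epithelial differentiation, had changes of 1.61 and -1.79. All 3 were brighter in basal than in luminal cells of intact mice, and dimmer in basal than in luminal cells on average after castration. Plscr1, an interferon-inducible phospholipid scramblase, went from 3095, 3611 and 1737 to 6875, 5995 and 7852 in luminal cells. It went from 8431, 7376 and 9738 to 4099, 3259.8 and 2843 in basal cells, close to a mirror image (changes 1.35 and -1.33, difference 2.67 ± 0.37, adjusted p = 0.00269). Cbx6, a Polycomb chromobox protein, had changes of 1.11 and -1.36. Ccn1, a matricellular protein secreted on growth factor and mechanical signals, had changes of 1.00 and -0.98. Zwint, a kinetochore protein named here after its values were seen, had changes of 0.80 and -0.84 (difference 1.65 ± 0.28, adjusted p = 0.00758), but none of its 5 other probe sets passed and 1 had the opposite sign (-0.21). Of these genes other than Zwint, Cbx6 and Ccn1 were no longer called when the probe sets of a gene were averaged (adjusted p = 0.0857 and 0.277). The averaged result for Zwint is not reported here.

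**Figure D2:**
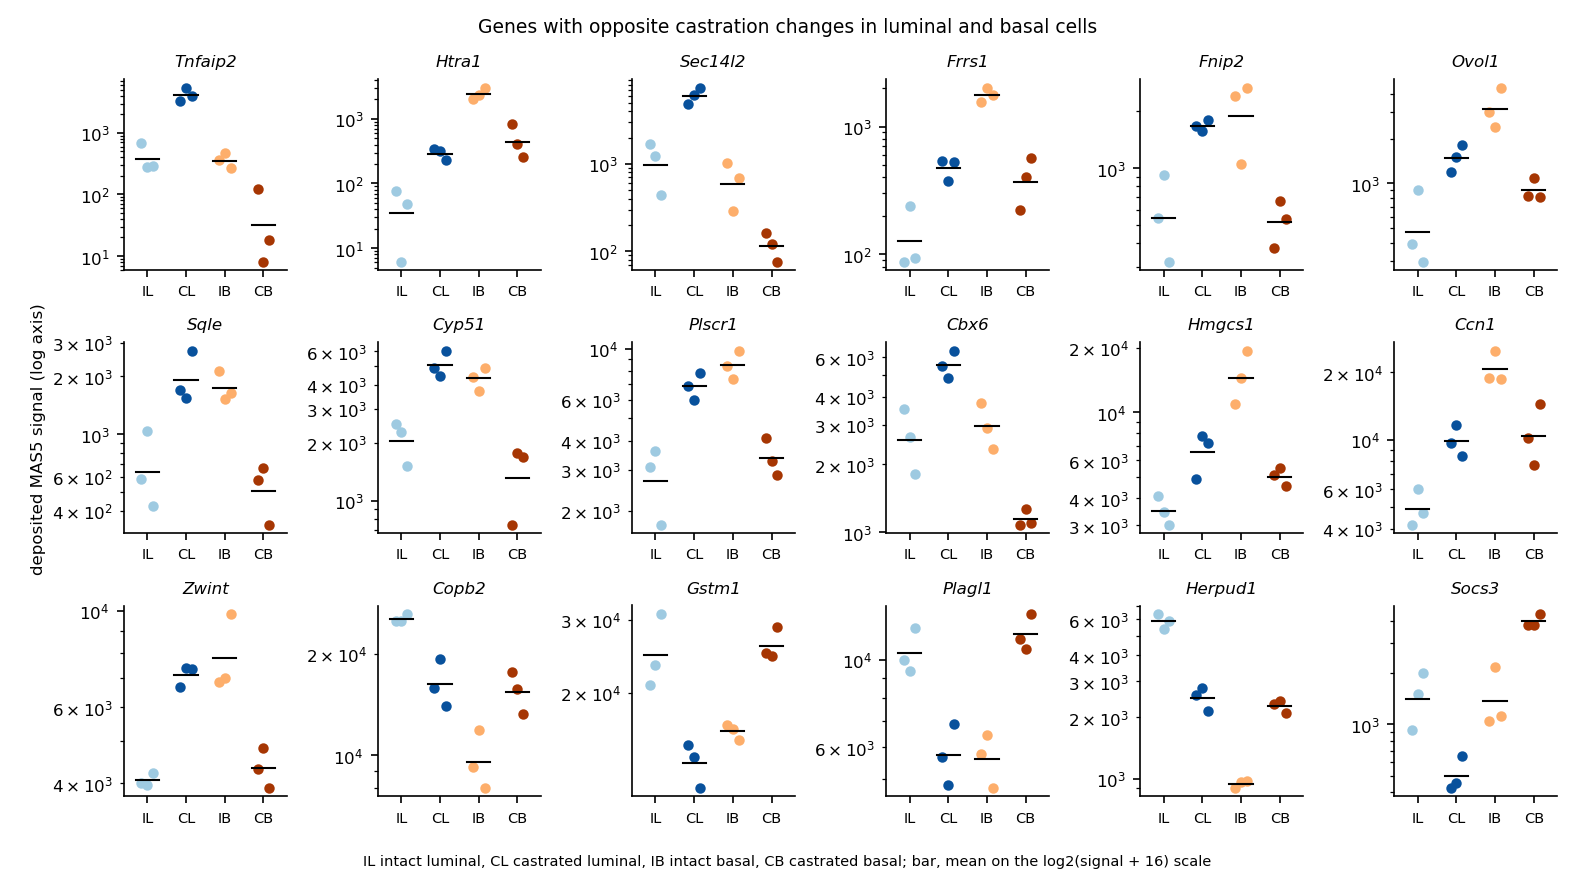
Deposited signal on each array (log axis, 1 point per array; bars, group means on the log2(signal + 16) scale) for the 18 genes that changed in opposite directions, in luminal cells of intact (IL) and castrated (CL) mice and in basal cells of intact (IB) and castrated (CB) mice. The first 13 genes rose in luminal and fell in basal cells, and Copb2, Gstm1, Plagl1, Herpud1 and Socs3 did the reverse.

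Of the 18 opposite genes 3 were enzymes of sterol synthesis: Hmgcs1, Cyp51 and Sqle rose in luminal and fell in basal cells. Cells make cholesterol from acetyl-CoA through mevalonate, isoprenoids and squalene, and the transcription factor SREBP-2 raises the enzymes of this route when sterols in the endoplasmic reticulum run low; INSIG1 holds SREBP-2 back there. SREBP-2 binds sterol regulatory elements and acts with NF-Y, which binds CCAAT boxes. Of 26 listed genes, 21 were measured, and 5 passed with a positive difference (Hmgcs1, Cyp51, Sqle, Insig1 and Idi1) and none with a negative one, against 0.676% and 0.471% of all genes; 11 of the 21 had an unadjusted p under 0.05. The estimate was positive in 18 of 21. Over all genes 51.2% of estimates were positive and 12.7% had an unadjusted p under 0.05. The median luminal change was 0.58, the median basal change -0.95 and the median difference 2.01, against -0.09, -0.11 and 0.03 over all genes tested. In luminal cells 4 members rose (2.9% of all genes) and none fell. In basal cells 6 fell (1.5% of all genes) and none rose. The other 5 listed genes were not analysed here.

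The 250 bases before the start site of 4 of the 5 called genes are shown because these genes moved together and carry the boxes named above in different arrangement (RefSeq, GRCm38.p6, written 5′ to 3′ on the gene's strand; capitals mark a match to the sterol regulatory element consensus TCACNCCAC or to CCAAT, on either strand). Sqle is named only.
Hmgcs1, chr13:119690101-119690350, plus strand: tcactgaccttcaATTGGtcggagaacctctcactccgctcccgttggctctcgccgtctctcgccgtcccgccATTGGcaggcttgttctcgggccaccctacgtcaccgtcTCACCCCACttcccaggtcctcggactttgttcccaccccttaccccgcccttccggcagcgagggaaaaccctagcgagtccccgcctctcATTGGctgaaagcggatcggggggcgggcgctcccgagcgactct
Cyp51, chr5:4104698-4104947, minus strand: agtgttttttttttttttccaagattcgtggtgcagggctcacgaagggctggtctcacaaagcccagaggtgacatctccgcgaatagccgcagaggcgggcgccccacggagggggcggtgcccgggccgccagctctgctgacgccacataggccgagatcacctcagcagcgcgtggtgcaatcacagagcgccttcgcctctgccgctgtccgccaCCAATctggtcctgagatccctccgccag
Insig1, chr5:28071162-28071411, plus strand: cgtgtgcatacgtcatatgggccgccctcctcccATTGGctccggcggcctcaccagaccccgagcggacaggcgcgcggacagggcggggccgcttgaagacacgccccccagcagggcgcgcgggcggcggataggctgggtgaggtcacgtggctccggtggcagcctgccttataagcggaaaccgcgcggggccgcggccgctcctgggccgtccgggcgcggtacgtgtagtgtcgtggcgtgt
Idi1, chr13:8885356-8885605, plus strand: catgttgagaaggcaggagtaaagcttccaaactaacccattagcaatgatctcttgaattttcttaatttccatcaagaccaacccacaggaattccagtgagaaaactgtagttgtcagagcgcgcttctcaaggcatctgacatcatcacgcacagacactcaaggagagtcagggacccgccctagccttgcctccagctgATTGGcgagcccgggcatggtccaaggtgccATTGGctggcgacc

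In windows from 250 bases before to 50 after a start site, 16 of 17 sterol list genes with a window held a CCAAT box (94.1%), against 41.1% of 27025 genes. The sterol consensus as spelled was found in Hmgcs1 alone of the 17 (5.88%), with its first base at position -137 from the start site, against 1.44% of all genes. The hexamer AGAACA, the core recognised by the androgen receptor, was found in 5 of 17 (29.4%) against 21.3%. These matches describe letters in the window and do not show binding.

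Hmgcs1, which makes HMG-CoA at the entry of the pathway, had luminal signals of 4107, 3435 and 3009 in intact and 4917, 7802 and 7224 in castrated mice. Its basal signals were 11000.0, 14446 and 19250.4 and then 5105, 5493 and 4534. Every intact basal array lay above every other array, and after castration the basal level fell to that of the dimmest castrated luminal array. The changes were 0.90 ± 0.24 and -1.53 ± 0.24, and the difference 2.43 ± 0.34 (adjusted p = 0.00269). The other 3 probe sets of Hmgcs1 tested gave differences of 2.94, 2.82 and 2.74, and all passed. Cyp51, the lanosterol demethylase, had signals of 2494, 2279.9 and 1510.2 and 4883, 4463 and 5994 in intact and castrated luminal cells. In basal cells they were 4396, 3731 and 4922 and 749, 1767 and 1695. Castrated luminal and intact basal arrays lay at like levels, above the other 2 groups. The difference was 3.01 ± 0.46 (adjusted p = 0.00374), and its 2 further probe sets gave 4.33 and 3.87, both called. Sqle, the squalene monooxygenase, was 585, 1036 and 425 and 1699, 1552 and 2708 in luminal and 2136, 1522 and 1639 and 577, 664 and 338 in basal cells. Neither pair of groups overlapped, and the difference was 3.33 ± 0.57 (adjusted p = 0.00742).

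Insig1 fell in basal cells, from 4104, 4193 and 6349 to 1055, 665 and 888. Its luminal arrays overlapped, at 2655, 1843 and 1115 in intact and 1864, 2427 and 2384 in castrated mice. The basal change was -2.46 ± 0.33 (adjusted p = 7.18e-04), the luminal change 0.32 ± 0.33 (adjusted p = 0.659) and the difference 2.79 ± 0.47 (adjusted p = 0.00732). Idi1, the isopentenyl diphosphate isomerase and the fifth called member, had a basal change of -2.08 ± 0.39 and a luminal change of 0.58 ± 0.39 (adjusted p = 0.456). Its difference of 2.66 ± 0.56 (adjusted p = 0.0254) stayed called in 5 of 12 fits that each left out 1 array. Srebf2, the gene of SREBP-2 itself, had a like estimate that did not pass (2.88 ± 0.74, adjusted p = 0.0742), with a called basal fall of -2.01 ± 0.52. Msmo1, a sterol C4-demethylase component, rose in luminal cells by 2.47 ± 0.50 (adjusted p = 0.00618), and its difference did not pass (2.18, adjusted p = 0.179). Fdps (2.96), Stard4 (2.75), Fdft1 (2.38) and Hsd17b7 (2.01) had positive estimates that did not pass, while Mvk (-1.65), Ebp (-0.79) and Scap (-0.07) had negative ones. Without the intensity trend no sterol gene was called, with adjusted p of 0.0522 for Cyp51, 0.0522 for Sqle, 0.0612 for Hmgcs1 and 0.0612 for Insig1; under the other settings 3 to 6 were called, the 3 without all replicate 3 arrays. The related fatty acid synthesis list showed no call in 15 measured genes by limma (2 at an unadjusted p under 0.05), and its median difference was 0.16.

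**Figure D3:**
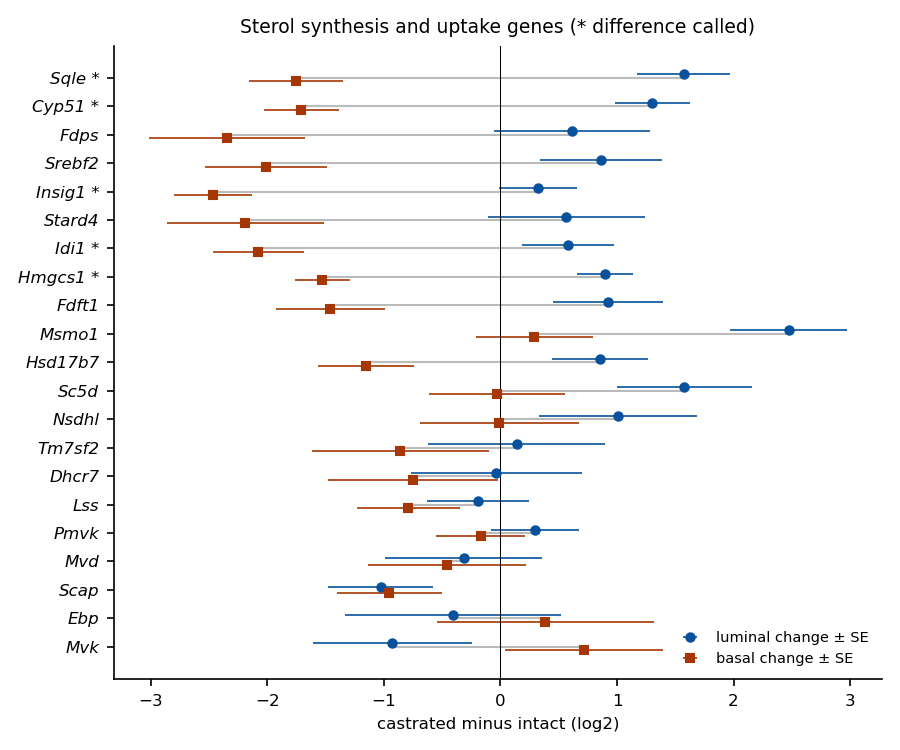
Castrated minus intact change (log2, horizontal axis) of the 21 measured sterol synthesis and uptake genes in luminal (circles) and basal cells (squares), with standard errors; an asterisk marks a called difference. Luminal circles lie right of basal squares in 18 genes, from Sqle at the top (difference 3.33) to Mvk at the bottom (-1.65).

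In 5 genes the reverse held. Herpud1, which takes part in degradation of misfolded proteins at the endoplasmic reticulum, had luminal signals of 6361, 5399.6 and 5869.6 in intact and 2566, 2787 and 2137 in castrated mice. Its basal signals were 904, 961 and 973 and then 2321, 2408 and 2089. The cell types started several-fold apart and ended with overlapping ranges. The luminal change was -1.24 ± 0.24, the basal change 1.25 ± 0.24 and the difference -2.48 ± 0.34 (adjusted p = 0.00269). This difference was called under every setting tried. The opposite changes within each cell type were not as stable: after median centring none of the 5 genes had both called. Socs3, a feedback inhibitor of cytokine signalling, went from 924, 1499 and 1995 to 426, 454 and 652 in luminal and from 1049, 2174 and 1119 to 3808, 3821 and 4399 in basal cells. It thus began at like levels and ended apart, with all castrated basal arrays highest and all castrated luminal arrays lowest. The difference was -2.99 ± 0.52 (adjusted p = 0.00758), and its 2 other probe sets, at -4.16 and -2.80, were called too. Plagl1, an imprinted zinc-finger gene, changed by -0.86 in luminal and 1.04 in basal cells, a call lost when probe sets were averaged (adjusted p = 0.0692). Gstm1, a glutathione S-transferase, changed by -0.87 and 0.69; of its 3 other probe sets, 1 had the opposite sign (1.31, not called), and averaging them ended the call (adjusted p = 0.326). Copb2, a coatomer subunit of vesicle traffic, changed by -0.65 and 0.69, and without castrated luminal replicate 3, after quantile normalization or with averaged probe sets it was not called (adjusted p = 0.0511, 0.116 and 0.0851).

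Herpud1 was 1 of 4 endoplasmic reticulum genes called with a luminal change below the basal change. Of 33 measured folding and translocation genes none passed upward and 4 downward, against 0.471% of all genes. Positive estimates numbered 3 of 33, against 51.2% of all genes. The median luminal change was -0.86, the median basal change -0.32 and the median difference -0.39. In luminal cells 14 members fell, against 2.96% of all genes, and in basal cells 2 fell and 1 rose, against 1.5% and 1.12%. Ddit3, the stress-induced transcription factor CHOP, had luminal signals of 1561, 1481 and 2794 and 609.6, 869.5 and 743 and basal signals of 999, 1123 and 1054 and 1746, 2346 and 2745. Neither cell type's groups overlapped (difference -2.40 ± 0.47, adjusted p = 0.017). Sec61a1, the translocon pore subunit, had a difference of -1.62 ± 0.31 (adjusted p = 0.0164), but its 5 other probe sets, 1 of them of opposite sign, did not pass. Ssr3, a translocon-associated subunit, had a difference of -1.16 ± 0.23 (adjusted p = 0.0169). Ddit3 lost the call without castrated luminal replicate 1 or 3 (adjusted p = 0.0685 and 0.059), as did Sec61a1 (0.0528 and 0.0511), and Ssr3 lost it without castrated luminal replicate 3 (0.074). Sec61a1 was not called after quantile normalization, median centring or averaging of probe sets either (0.0659, 0.0557 and 0.215), nor Ssr3 after median centring or with the replicate block within status (0.0724 and 0.0556). The chaperones Hspa5 (-1.31 ± 0.19 in luminal, -0.44 ± 0.19 in basal cells) and Hsp90b1 (-1.16 ± 0.15 and -0.92 ± 0.15) fell in luminal cells, Hsp90b1 in basal cells too, and their differences did not pass.

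Of 16 prostatic secretory genes measured, 11 fell in luminal and 6 in basal cells, against 2.96% and 1.5% of all genes, and none rose. The size of the fall differed in both directions. Pbsn, the androgen-regulated secretory protein probasin, went from 57928, 56237 and 70160.0 to 5953, 4689.9 and 4837 in luminal cells. In basal cells it went from 9468, 4705 and 12419 to 134, 19.1 and 23.2. Castrated luminal arrays thus overlapped the range of intact basal arrays, and 1 of 3 castrated basal arrays lay above the 40th percentile. The fall was larger in basal cells (-3.57 ± 0.44 in luminal, -7.12 ± 0.44 in basal, difference 3.55 ± 0.62, adjusted p = 0.00906). Tgm4, the prostatic transglutaminase that clots semen, went from 40889.9, 36554 and 57548 to 304, 308 and 239 in luminal cells. It went from 3196, 1594 and 4745 to 65.6, 200.2 and 72.4 in basal cells. Here the luminal fall was the larger one (-7.21 ± 0.43 and -4.65 ± 0.43), but the difference of -2.56 ± 0.60 lay at the threshold (adjusted p = 0.0495), and 9 of 12 fits without 1 array did not call it (adjusted p up to 0.144 over all settings). Pate14, a secreted protein of the Ly6 family, fell from 10559, 7578 and 5585 to 21.7, 1.78 and 30.3 in luminal and from 484, 108 and 111 to 11.7, 3.44 and 2.35 in basal cells. No castrated array of either cell type exceeded the 40th percentile, and intact basal cells started far lower, so both falls run to the floor (difference -4.72 ± 0.90, adjusted p = 0.0143, and 0.191 with a constant of 1 added).

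Svs2, a semen coagulum protein of the seminal vesicle, changed by -3.32 in luminal and -7.53 in basal cells on the log2 scale (difference 4.22 ± 0.80, adjusted p = 0.0143). Its other probe set gave the opposite difference (-3.22, adjusted p = 0.113), so its direction depends on the probe set, and averaging the pair ended the call (adjusted p = 0.796). Svs6 and Svs3a, of the same family, were dim in basal cells and fell in luminal cells, from 1745, 7999 and 7649.8 to 3.07, 16.3 and 20.1 for Svs6. Their differences were -6.87 ± 1.26 and -5.52 ± 0.95. Cdo1, the cysteine dioxygenase of taurine synthesis, was bright throughout, at 37983, 38941 and 49848 and 4447, 3465 and 2454 in intact and castrated luminal cells. In basal cells it was 3241, 1809 and 2518 and 962, 1176 and 891. Intact and castrated arrays did not overlap in either cell type, and the luminal fall was larger (difference -2.36 ± 0.38, adjusted p = 0.00521). Msmb, a prostatic secretory protein, changed by -8.56 in luminal and -4.94 in basal cells on the log2 scale, but the difference did not pass (-3.62 ± 1.31, adjusted p = 0.238). Of the 16 differences Pbsn passed upward and Tgm4 and Pate14 downward, against 0.676% and 0.471% of all genes, and the median difference was -0.94. Of 9 seminal vesicle genes tested 5 were measurable in both cell types, and of these Svs2 alone was called. Svs6, Svs3a and Sva were called downward, but they entered the test through luminal cells and were dim in basal cells, which fixes that direction. The summed signal of the 16 prostatic genes was 270226 to 359978 on intact and 36654 to 44130 on castrated luminal arrays, and 23921 to 38402 and 6807 to 9331 on intact and castrated basal arrays.

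**Figure D4:**
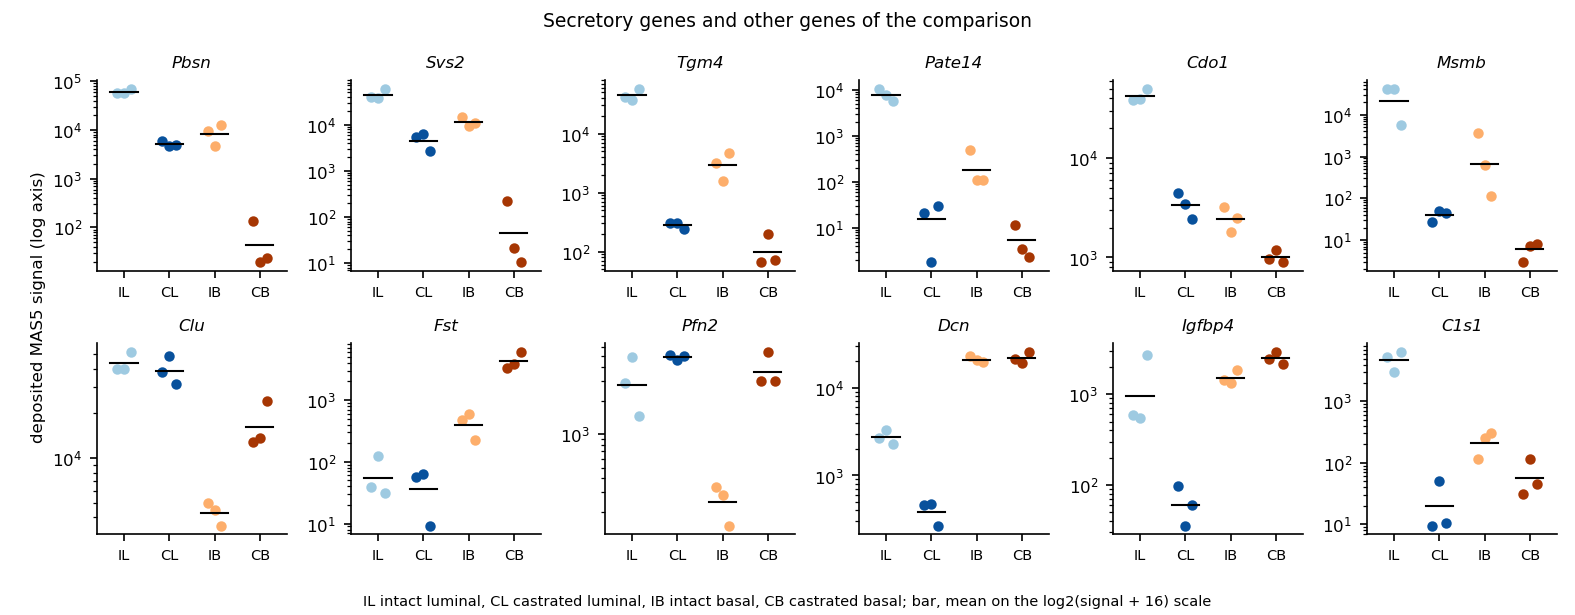
Deposited signal on each array (log axis, 1 point per array; bars, group means on the log2(signal + 16) scale) of 6 secretory or androgen-dependent genes and 6 others, in luminal cells of intact (IL) and castrated (CL) mice and in basal cells of intact (IB) and castrated (CB) mice. Pbsn and Svs2 end far lower in basal than in luminal cells, Clu and Fst rise in basal cells with overlapping luminal groups, and Dcn, Igfbp4 and C1s1 fall in luminal cells.

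The most common pattern was a called luminal change without a called basal one, 64 genes with a positive and 46 with a negative difference. Of them 96 were measurable in both cell types, 58 with a positive and 38 with a negative difference. In the rest the absent call does not tell an unchanged gene from one too dim to measure. Ccdc3, a secreted coiled-coil protein, went from 10.8, 36.2 and 41.7 to 1821, 1621 and 2044 in luminal cells. In basal cells it was 1663, 1304 and 1447 and 2656, 2887 and 2097. It was near the bottom of the scale in intact luminal cells alone, and castrated luminal cells reached basal levels (difference 4.63 ± 0.54, adjusted p = 5.84e-04). Casp12, a caspase of the endoplasmic reticulum, had the same course, from 8.06, 4.37 and 6.20 to 389, 228 and 189 in luminal cells. Its basal arrays gave 294, 284 and 139 and 90.00, 105 and 57.1, lower after castration without overlap although that change was not called (difference 4.94 ± 0.80, adjusted p = 0.00521). Ccdc3 and Casp12 were called in every setting tried. Steap4, a metalloreductase regulated by androgen, rose by 2.25 in luminal cells and changed by 0.04 in basal cells (difference 2.21 ± 0.39, adjusted p = 0.01, and 0.0525 with averaged probe sets). Lgr4, a receptor for R-spondins in Wnt signalling, changed by 1.71 and -0.56, and Bcl2l11, the pro-apoptotic BH3 protein BIM, by 1.70 and -0.18. The Lgr4 call was lost in 7 of 12 fits without 1 array and with the replicate block (adjusted p = 0.0539). The Bcl2l11 call was lost without castrated luminal replicate 1 or 3 or intact basal replicate 2 (adjusted p = 0.087, 0.0836 and 0.0588). Cytip, a cytohesin-binding protein of leukocytes (difference 4.70), and Hivep3, a zinc-finger protein (4.58), were lost in 10 and 11 of 12 fits without 1 array.

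Cxcl5, a chemokine that attracts neutrophils, was the 1 called member of 25 in the chemokine and NF-kB list, against 1.15% of all genes. Its luminal signal went from 6.61, 2.90 and 39.9 to 1310.3, 1586 and 1770.1. Its basal signal went from 32.1, 15.2 and 18.7 to 54.7, 113 and 87.0, a change that did not pass. No intact array of either cell type exceeded the 40th percentile and all castrated arrays did, so both changes start from the floor. The difference was 4.37 ± 0.83 (adjusted p = 0.0137), lost without castrated luminal replicate 3 (adjusted p = 0.0591) and with a constant of 1 added (0.0581). Of 25 genes measured in this list 22 had positive estimates and 11 an unadjusted p under 0.05, against 51.2% and 12.7% of all genes, with a median luminal change of 0.73, a median basal change of -0.30 and a median difference of 0.88. Nfkbiz (2.13 ± 0.52, adjusted p = 0.0604), Cxcl10 (1.37), Cxcl1 (1.13) and Tnf (2.75) were among those that did not pass. Of 21 interferon-stimulated genes 18 had positive estimates and none passed by limma (5 at an unadjusted p under 0.05). Among genes too dim in basal cells for both changes to be measured, Rgs4, a regulator of G protein signalling, went from 34.9, 2.91 and 38.7 to 596, 1064 and 629 in luminal cells (difference 5.94 ± 0.92). Slco5a1, of the organic anion transporter family, and Reg3g, an antimicrobial lectin, rose in luminal cells to 237 to 365 and 472 to 941. The Reg3g difference was lost in 11 of 12 fits without 1 array. Rgs4, Slco5a1 and Reg3g entered the test through luminal cells, which fixes the direction of their differences.

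In the other direction, C1s1, a complement C1 protease, fell in luminal cells from 5259, 3072 and 6418 to 9.39, 51.1 and 10.5. In basal cells it was 117, 254 and 306 and 30.4, 115 and 45.03. The luminal mean thus dropped from the highest of the 4 groups to the lowest (difference -5.40 ± 0.86, adjusted p = 0.0051). In castrated luminal cells 1 of 3 arrays exceeded the 40th percentile, so the size of the C1s1 fall depends on the constant added. Igfbp4, a carrier of insulin-like growth factors, fell in luminal cells from 591, 543 and 2706 to 97.4, 35.6 and 60.2. Its basal signals were 1426, 1311 and 1868 and 2449.9, 2917 and 2169.6, higher after castration without overlap, though not called. The difference was -4.38 ± 0.74 (adjusted p = 0.00732), and of its 5 other probe sets 1 passed and 1 had the opposite sign (0.58, not called). Dcn, the matrix proteoglycan decorin and a fibroblast marker, went from 2678, 3314 and 2266 to 463, 468 and 267 in luminal cells. It stayed within overlapping ranges in basal cells, at 22817, 20728 and 19695 and 21299, 19295 and 25683. The difference was -2.82 ± 0.35 (adjusted p = 8.73e-04); its other, dimmer probe set gave 0.60, and averaging the pair ended the call (adjusted p = 0.316). Summed fibroblast markers fell in luminal cells beside Dcn, and the other 13 fibroblast genes were not called, collagens Col1a1 and Col1a2 among them with called falls in both cell types (-3.90 and -3.03; -4.40 and -4.39).

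Id3, a target of BMP signalling, fell by 1.97 in luminal cells and changed by -0.08 in basal cells (difference -1.88 ± 0.35, adjusted p = 0.0121). Bcl2, the anti-apoptotic protein, had luminal signals of 11663, 7987 and 11936 and 2936, 4413 and 3918 in intact and castrated mice. Its basal signals of 8518, 12312 and 15747 and 12160.0, 12173 and 19188 overlapped. Castrated luminal cells were thus the low group (difference -1.74 ± 0.36, adjusted p = 0.025), though 6 of 12 fits without 1 array lost the call (adjusted p up to 0.19 over all settings). Bche, the butyrylcholinesterase (difference -4.35), Cd52, a small glycoprotein of leukocytes and of the male tract (-4.65), Cd24a, a luminal surface protein (-0.84), and B2m, the light chain of class I antigen (-0.79), were called too, and 5, 10, 9 and 11 of 12 such fits lost them. After quantile normalization Cd24a and B2m were far from a call (adjusted p = 0.964 and 0.919). Over all settings their differences shrank to as little as -0.05 and -0.06, so both depend on the normalization. Nefh, the heavy neurofilament protein, fell from 1738, 1759 and 2953 to 13.1, 13.9 and 58.8 in luminal cells and was at most 6.75 on basal arrays (difference -5.49 ± 0.80). It entered the test through luminal cells and was dim in basal cells, which fixes that direction.

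In 25 genes only the basal change was called, 11 with a positive and 14 with a negative difference. Clu, the secreted chaperone clusterin long known to rise in the regressing prostate, went from 4986, 4461 and 3505 to 12887, 13647 and 24246 in basal cells. Its luminal signals overlapped, at 40159.5, 40185 and 51976 in intact and 37893, 48813 and 31443 in castrated mice. Basal cells rose toward, and did not reach, the luminal level. The basal change was 1.92 ± 0.23, the luminal change -0.18 ± 0.23 and the difference -2.10 ± 0.32 (adjusted p = 0.00374), and its 3 other probe sets, at -1.80, -1.75 and -1.70, all passed. After quantile normalization Clu was not called (adjusted p = 0.0603). Sgk1, a kinase induced by steroids, rose in basal cells by 0.81 ± 0.17 and changed by -0.49 ± 0.17 in luminal cells (difference -1.30 ± 0.23, adjusted p = 0.0109). After quantile normalization it was not called either (adjusted p = 0.0537). Fst, the activin antagonist follistatin, rose in basal cells from 473, 594 and 226 to 3311, 3831 and 6000.1. It was dim in luminal cells, with 38.8, 124 and 30.7 in intact and 55.7, 62.3 and 9.22 in castrated mice. The difference was -3.80 ± 0.86 (adjusted p = 0.0411); 11 of 12 fits without 1 array lost it, and its second probe set passed at -4.19 (adjusted p = 0.0454).

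Pfn2, an actin-binding profilin, had the largest called basal rise of the named genes after Nradd, from 336, 284 and 150.4 to 2966, 5463 and 2987, and overlapping luminal groups. Its difference of -2.98 ± 0.58 (adjusted p = 0.0169) was lost without castrated luminal replicate 1, 2 or 3 (adjusted p = 0.0511, 0.0539 and 0.0596), and both other probe sets had small differences of opposite sign (0.59 and 0.16), so that averaging ended it too (0.646). Nradd, a death-domain relative of neurotrophin receptors (-4.61), and Ppp1r9a, an actin-binding neurabin (-3.54), were lost in 7 and 9 of 12 fits without 1 array. Among the genes that fell in basal cells only, Tatdn2, a putative deoxyribonuclease, went from 2924, 2186 and 3064 to 444, 489 and 202. In luminal cells it went from 340.1, 264 and 277 to 735, 446 and 647, higher without overlap though not called. It was called in every setting tried (difference 3.87 ± 0.59, adjusted p = 0.00374). P4ha3, a collagen prolyl hydroxylase subunit (4.27 ± 0.79), was lost without castrated luminal replicate 3 (adjusted p = 0.055). Mtmr11, a myotubularin relative (5.41), was lost without castrated luminal replicate 1 or 2 or intact basal replicate 1 (adjusted p up to 0.272 over all settings), and Chadl, a matrix protein (4.31), in 9 of 12 such fits; no castrated basal array exceeded the 40th percentile for P4ha3, Mtmr11 or Chadl.

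Both cell types rose in Thbs1, the matrix glycoprotein thrombospondin 1, which restrains vessel growth. Luminal signals were 1699, 1844 and 1531 in intact and 12766, 16293 and 14164 in castrated mice. Basal signals were 9100.4, 10867 and 10581 and 23893, 23086 and 32877. All 4 groups were separate, with castrated luminal cells just above intact basal ones, and the luminal rise was the larger (3.08 ± 0.19 and 1.37 ± 0.19, difference 1.71 ± 0.26, adjusted p = 0.0039). In 9 genes the difference passed though neither change did. Named by size, these were Irgq, an immunity-related GTPase relative (1.76 in luminal and -1.63 in basal cells), the ephrin receptor Epha1 (1.52 and -1.59), the histone methyltransferase Dot1l (1.18 and -1.47), the interleukin-1 receptor Il1r1 (1.40 and -1.05) and, with the reverse signs, the transcription factor Pou3f3 (-1.38 and 1.41). Between 4 and 12 of 12 fits without 1 array lost these calls.

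In the remaining lists 0 to 2 differences a list were called, where 1.15% of all genes were called and 12.7% had an unadjusted p under 0.05, and nothing is read from counts this small. None passed by limma among 27 cell cycle genes (1 at an unadjusted p under 0.05), 17 Notch genes (2), 21 respiratory chain genes (2), 8 smooth muscle genes (2), 9 endothelial genes (0) and 12 leukocyte genes (2). Of 14 proximal luminal genes 5 rose in luminal (2.9% of all genes) and 4 in basal cells (1.12%), and Clu had the 1 called difference. The Wnt list had Lgr4 called of 25, the TGF-beta and BMP list Id3 and Fst of 24, the androgen-responsive regulators Steap4 and Sgk1 of 19 and the glutathione list Gstm1 of 22. The immediate early list had Ccn1 called upward and Socs3 downward of 24, the BCL2 family Bcl2l11 upward and Bcl2 downward of 15, and the antigen presentation list (15) and the reference list (8) B2m downward. Erythroid genes and genes of nerve and neuroendocrine cells were 2 each as measured, none called by limma (1 and 0 at an unadjusted p under 0.05). A difference that did not pass does not show that the cell types responded alike.

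**Figure D5:**
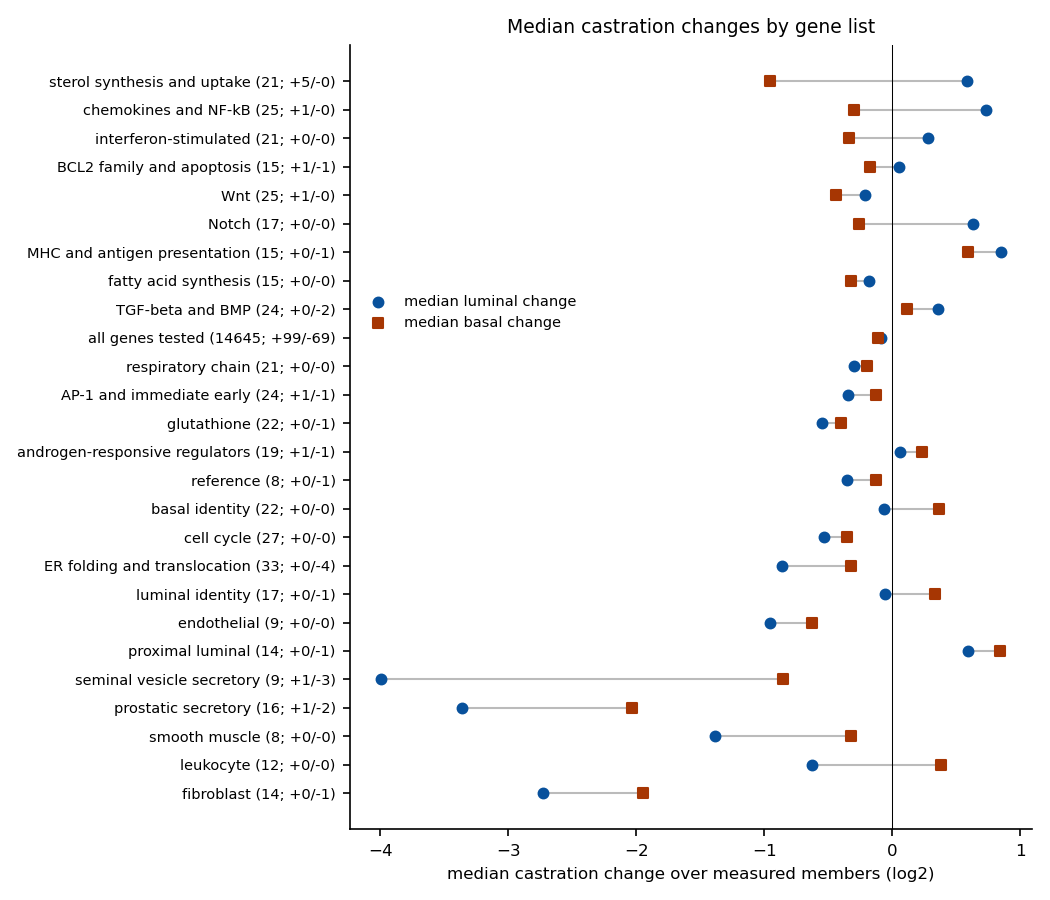
Median castration change over the measured members of each gene list (log2, horizontal axis) in luminal cells (circles) and basal cells (squares), ordered by the median difference; brackets give the measured members and the called positive and negative differences. The sterol list lies at 0.58 in luminal and -0.95 in basal cells, and secretory and fibroblast lists lie left of all genes tested in both cell types.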

How the data were processed

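RNA of 12 sorted prostate cell samples was hybridised to 12 Affymetrix arrays, 1 per sample. The authors deposited 1 intensity per probe set, a linear signal made with MAS5, per the submitters' processing notes; the version is not given in the sources used here, and detection calls were not used here. MAS5 scales each array as a whole and keeps noise at low signal, so values below about the 40th percentile have little order and large log2 changes to or from them depend on the constant added.

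Of 45101 probe sets, 64 controls were left out. Of the others, 34945 had 1 gene symbol in the platform annotation, 932 several and 9160 none, and only the first kind was named. The probe set with the highest mean signal stood for each of 18193 genes. Genes were kept with a signal above the array's 40th percentile on at least 3 arrays (14645 genes), and log2(signal + 16) was fitted with limma 3.58.1 in R 4.3.3 (4 group means, 8 residual degrees of freedom, moderated variance with an intensity trend). Every p was adjusted by Benjamini-Hochberg over the 14645 genes, and ± is the standard error. The replicates are named biological in the labels. Array medians of the deposited signal were 78.8 to 99.95 on intact and 57.7 to 73.9 on castrated arrays, so they ran along surgical status. Rises and falls within a cell type rest on the deposited scaling. The number of arrays limits the precision. The script was tested on simulated data.

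Whether equal replicate numbers mark the same animals is not clear, and the main fit treated the arrays as unpaired. Residual correlations of equal-numbered arrays were -0.00723 to 0.0258. They were taken over all genes tested, many of them noisy at low signal, so they cannot decide it. The design text speaks of 3 sets with paired intact animals, so the replicate block was run as an alternative. Other alternatives changed the normalization, the constant, the filter, the choice of probe set and the variance model, or left out arrays. Genes were named by rule: opposite genes by the smaller of their changes, up to 10 per direction; 4 per direction of each other pattern by size; up to 4 called members per list; the 3 largest per direction among genes dim in a cell type; and a fixed set of secretory, keratin and sterol genes. The comparison, lists and named genes were chosen with earlier results of these data known. Some genes of the lists are not reported here. Figures were drawn with matplotlib 3.10.9 (Python 3.11.15, pandas 2.3.3, numpy 2.4.6).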

Additional observations from a re-analysis of the deposited data

Results flagged for a closer look

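The difference between luminal and basal cells in the castration change passed the test of the difference itself in 168 genes, by limma with Benjamini-Hochberg adjustment. In 18 of them both changes were called and ran in opposite directions, 13 having risen in luminal and fallen in basal cells. No explanation was tested for either count.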

How the results depend on the processing

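Against 168 called genes, 154 of them measurable in both cell types and 18 with opposite changes, dropping the intensity trend from the variance model gave 27, 21 and 3. Median centring gave 135, 122 and 10, and only 6 of these 10 were among the 18. All 10 were higher in the luminal change, so none of the 5 reverse genes counted as opposite. Median centring moved the median change of all genes from -0.09 to 0.29 in luminal and from -0.11 to 0.23 in basal cells, and the median difference from 0.03 to 0.07. Leaving out 1 array at a time gave 65 to 159, 60 to 150 and 4 to 14. Castrated luminal replicates 1, 2 and 3 moved the first count most, to 78, 90 and 65, and intact basal replicate 2 moved it to 106. In an alternative chosen after seeing the data, without replicate 3 of all groups, the counts were 86, 85 and 6. Of these 86 genes 57 were among the 168. It ended the call of 38 of the 65 called genes chosen for naming by rule, Sqle, Insig1, Socs3 and Pbsn among them, and 25 kept it. With the replicate block the counts were 129, 120 and 17, and with the block within surgical status 120 and 110. The opposite genes could not be counted with the block within status. The other settings kept all 3 counts within 1.5 times, array weights (246, 222 and 15) and an added constant of 1 (119, 112 and 16) lying farthest out. In all 12 fits without 1 array, 57 of the 168 genes were called, and 18 of these also without the trend; 64 were called in fewer than 6. Averaging probe sets gave 171 genes, 109 of them shared with the 168. Of the 65 called genes chosen for naming by rule, it ended the call of 18: Bche, Bcl2, Bcl2l11, Cbx6, Ccn1, Cd52, Copb2, Dcn, Epha1, Gstm1, Hivep3, Pfn2, Plagl1, Pou3f3, Ppp1r9a, Sec61a1, Steap4 and Svs2. The constant of 1 ended 17 (B2m, Bche, Cd52, Chadl, Cxcl5, Cytip, Epha1, Fst, Hivep3, Il1r1, Mtmr11, Nradd, Pate14, Pou3f3, Reg3g, Svs6 and Tgm4), quantile normalization 11 (B2m, Cd24a, Clu, Copb2, Cytip, Epha1, Fst, Hivep3, Il1r1, Sec61a1 and Sgk1), median centring 9 (B2m, Bcl2, Cd24a, Cd52, Hivep3, Pou3f3, Sec61a1, Ssr3 and Tgm4), the replicate block 9 and the absent trend 48. Of the named genes the sign turned only in Krt8, to 0.42 after quantile normalization. Of 216 further probe sets of 104 called genes, 190 had the sign of the gene (43 passing) and 26 the opposite sign (none passing). Each group had 3 arrays, and the median within-group SD was 0.321 in castrated luminal cells and 0.578 to 0.613 in the others.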

Other observations

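A pair of gene families named after their values were seen had a luminal change below the basal change in every measured member. Of the cytosolic aminoacyl-tRNA synthetases, which charge tRNAs with amino acids, 19 of 20 were measured, and none had a positive difference. Aars (-2.03), Cars (-2.16) and Gars (-1.53), for alanine, cysteine and glycine, passed by limma, 12 of 19 had an unadjusted p under 0.05, and the median difference was -1.09. Over all genes 0.471% were called in this direction and 12.7% had an unadjusted p under 0.05. In basal cells 6 members rose with castration, against 1.12% of all genes, and none fell, and the median change was 0.89. In luminal cells none passed in either direction by limma, and the median change was -0.28. The calls of Aars, Cars and Gars were kept in 10, 5 and 11 of 12 fits without 1 array, and none was called without the intensity trend. Since the family was picked for its values, its counts are a description.

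The metallothioneins, small proteins that bind zinc and copper, differed as well. Mt1 changed by -2.30 in luminal and 0.01 in basal cells (difference -2.31), and Mt2 by -2.27 and -0.05 (difference -2.22). Both fell in luminal cells, and both differences were called by limma in 12 of 12 fits without 1 array, though not without the intensity trend. Mt3 had a difference of -1.22 that did not pass. Of the 3 measured members 2 were thus called downward, against 0.471% of all genes. This family too was picked for its values, so its counts and the kept calls are a description.

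Among probe sets without a gene symbol in the annotation, 16 of 5538 tested differed between the cell types (0.289%), against 214 of all 33810 probe sets tested singly (0.633%).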
